A study of Mus musculus with 8 samples.

Results

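Blood endothelial cells of MT-ret melanoma that carried a high joint score of Aplnr, the apelin receptor, and Ramp3, a receptor activity modifying protein, numbered 736 of 3170 gated cells of the blood endothelial (BEC) sort (23.2%, exact binomial interval 21.8 to 24.7%). MT-ret tumors descend from mice in which a metallothionein promoter drives the RET oncogene. Per the labels, fragments of such a tumor were placed on the flank of 10 C57BL/6N mice, untreated as far as the labels say and with no age given, and BEC and lymphatic endothelial cells (LEC) were separated by fluorescence-activated sorting. Each sort was made into 4 libraries, per the labels, with a droplet 3′ kit that tags every captured RNA with a unique molecular identifier (UMI). The deposited matrix held 3228 BEC and 4407 LEC cells, 7635 in all. Its column names gave the sort and no library, so the BEC sort was 1 sample, the members are cells of that sample and not replicates, and no test between groups of cells was possible.

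Members were chosen by their UMIs. The gate kept BEC cells with fewer than 20 UMIs of Dct, Tyrp1, Pmel and Tyr together, which are pigment cell genes, and fewer than 20 of Col3a1 and Rgs5, which mark fibroblasts and pericytes, and it left out 58 cells. Each gated cell was scored for 5 gene sets as the mean of log1p UMIs per 10000, expressed as a z over the gated cells. A cell was a member when the set of Aplnr and Ramp3 had the highest z of the 5 and that z was over 0.5. The same rule drew 346 cells by Ackr1, Selp and Vwf (the Ackr1 group), 309 by Gja5, Sema3g and Stmn2 (the Gja5 group), 552 by Apln, Tnfrsf9 and Kit (the Apln group) and 549 by Npr3, Vegfc and Dkk2 (the Npr3 group), and 678 cells had no set over the threshold. These 2434 cells are called the other gated cells below.

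Apelin, made in sprouting vessels by tip cells, acts on Aplnr, a G protein-coupled receptor of veins and growing capillaries. Ramp3 is a small membrane protein that pairs with the calcitonin receptor-like receptor Calcrl, and this pair, like Calcrl with Ramp2, binds adrenomedullin. In tumor vessels the receptors for both peptides sit on endothelium, and both ligands are known to be raised by hypoxia.

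Levels are given as CPM, for which UMIs were summed over the cells of a group and each gene divided by the group's total. In members, which the rule chose on these 2 genes, Aplnr stood at 692 CPM (exact Poisson interval 679 to 705) and Ramp3 at 728 CPM (715 to 742). Across the other groups Aplnr was at 628 CPM in the Ackr1 group, 339 CPM in cells with no set over the threshold, 225 CPM in the Apln group, 137 CPM in the Gja5 group and 84.9 CPM in the Npr3 group. Ramp3 followed another order, with 337 CPM in the Gja5 group, 305 CPM in the Npr3 group, 166 CPM in the Apln group, 108 CPM in cells with no set over the threshold and 38.0 CPM in the Ackr1 group. Members were highest in both genes, and the group that came next was the Ackr1 group for Aplnr and the Gja5 group for Ramp3. Every interval in the text is a 95% interval for counting error alone.

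Aplnr lies at chr2:85136225-85139923 and Ramp3 at chr11:6658521-6677475 on the mouse build GRCm38. Ptn, which encodes the heparin-binding growth factor pleiotrophin and lies at chr6:36714929-36810220 on the minus strand, had the highest ratio of members to other gated cells of any gene outside the rule, and over all gated cells it was higher where Ramp3 was found. The RefSeq promoter windows of Ramp3 and Ptn are shown because the levels of the 2 genes went together. They run 5′ to 3′ along the gene's own strand, from 250 bases before to 50 bases after the start that the table uses (GRCm38.p6), at chr11:6658283-6658582 on the plus strand and chr6:36810130-36810429 on the minus strand, with the bases after the start in capitals.
Ramp3: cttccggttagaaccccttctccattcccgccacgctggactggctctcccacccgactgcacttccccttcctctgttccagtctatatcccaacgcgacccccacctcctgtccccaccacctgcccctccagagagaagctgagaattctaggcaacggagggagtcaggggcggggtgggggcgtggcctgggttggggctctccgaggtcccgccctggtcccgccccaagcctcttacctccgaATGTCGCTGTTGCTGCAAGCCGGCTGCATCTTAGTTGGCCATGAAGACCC
Ptn: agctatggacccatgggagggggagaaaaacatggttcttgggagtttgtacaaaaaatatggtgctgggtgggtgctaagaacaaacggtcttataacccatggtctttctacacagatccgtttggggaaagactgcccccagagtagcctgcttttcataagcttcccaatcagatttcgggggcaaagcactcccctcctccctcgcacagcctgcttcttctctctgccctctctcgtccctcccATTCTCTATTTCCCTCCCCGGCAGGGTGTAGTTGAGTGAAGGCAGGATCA
The GC content was 63.7% for Ramp3 and 52.0% for Ptn, beside a median of 52.7% over 32851 mouse promoter windows of the same length. On either strand neither window held CAGGAA, an ETS core present in 30.6% of all windows, or ACAAAG, a SOX core present in 18.7%. The lack of a match says only that these letters are not in these windows.

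Members were chosen on Aplnr and Ramp3, so the shares of cells with these genes describe that choice. Within members 658 cells (89.4%) held UMIs of both genes, 61 held Aplnr only and 17 Ramp3 only. The other gated cells held both in 736 of 2434 cells (30.2%). After each cell was thinned to 5000 UMIs, 67.5% of members and 10.6% of the other gated cells held both. Aplnr was then found in 86.1% of members, 77.7% of the Ackr1 group and 24.4% of the Npr3 group, and Ramp3 in 80.7%, 12.1% and 54.6%. Free RNA can add to such shares, but its level was not measured. Shares in other kinds of cell follow for scale, and their source was not tested. In 4119 gated LEC cells (median 10591 UMIs, against 19605.5 in members) the thinned shares were 1.34% for Aplnr and 3.28% for Ramp3, and in 22 pigmented cells of the BEC sort (median 33532 UMIs) 3 held Aplnr and 5 held Ramp3.

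The score had no gap at the threshold. The 20 members nearest to it (z 0.50 to 0.52) had 739 CPM of Aplnr and 145 CPM of Ramp3, and the 20 cells just under it (z 0.47 to 0.50) had 709 and 172 CPM. A further 255 cells were over 0.5 in this score but higher in another, 67 of them in the Npr3 set, 67 in the Apln set, 62 in the Gja5 set and 59 in the Ackr1 set. Members reached a z of 2.97, with a median of 1.19.

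Members were endothelial by the markers listed for that type. Of 12 pan-endothelial genes, 11 reached 50 CPM, and their summed level was 13077 CPM in members, 12585 CPM in the Npr3 group and 9776 to 11748 CPM in the other 3 scored groups. Emcn, the sialomucin endomucin of capillaries and veins, was at 2355 CPM in members and at 1435 to 1736 CPM in the 4 other scored groups. Of the lymphatic list, Lyve1 (0.558 CPM), Pdpn (0.372 CPM) and Prox1 (0.992 CPM) were near the level of a few UMIs and Reln was at 0. Nrp2 (105 CPM) and Flt4 (61.0 CPM), which blood endothelium also carries, were above the other gated cells (83.3 and 44.5 CPM), and the list summed to 185 CPM in members and 137 to 314 CPM in the 4 other scored groups. The mural list summed to 188 CPM in members and 213 to 418 CPM in the 4 groups, with Kcnj8 at 104 CPM, Acta2 at 7.63 CPM and Pdgfrb at 0.124 CPM in members. None of the 15 leukocyte, 10 fibroblast or 10 melanocytic genes reached 50 CPM in members or in the other gated cells. The summed level of the 10 fibroblast genes was 2.23 CPM in members, 3.36 CPM in the Npr3 group and higher in the other 3 scored groups, with Lum, Pdgfra and Dpt at 0 in members. The leukocyte list summed to 24.1 CPM in members and 11.6 to 46.3 CPM in the 4 groups, with Cd52, Tyrobp, C1qa, Cd3e and Nkg7 at 0 in members.

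Cells did not differ much in depth between groups. The median was 19605.5 UMIs in members (range 7019 to 86869) and 19231 UMIs in the other gated cells, with medians of 17795 to 22066 UMIs in the 4 scored groups. Median mitochondrial shares were 3.36% and 3.42%. No member held 5 or more UMIs of the lymphatic genes Lyve1, Prox1, Pdpn, Mmrn1 and Reln together, against 32 of the other gated cells, and 34 barcodes occurred in both sorts. Doublets were not called.

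Few genes set the members apart. Of 3160 genes at 50 CPM or more in members or in the other gated cells, 17 were at least 2-fold higher in members (0.538%), of which Aplnr and Ramp3 belong to the rule, and 36 were at least 2-fold lower (1.14%), of which Selp, Ackr1, Stmn2, Tnfrsf9 and Vwf belong to the rule. The remaining 15 higher genes included Ptn, the lipid phosphatase gene Plpp1 and the collagen gene Col13a1, and the remaining 31 lower genes included the angiogenic factors Angpt2, Adm and Pgf, the matrix genes Fn1, Mgp, Eln and Fbln5, and Edn1. The median log2 difference over all tested genes was 0.03, and 95.4% of them lay within 1.5-fold. These numbers describe 1 sample and were not tested.

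Ptn stood at 861 CPM in members (847 to 876) and 240 CPM in the other gated cells (236 to 244), a 3.58-fold difference (3.50 to 3.67). When cells were scored by Aplnr alone the difference was 1.10-fold, under the 2-fold line, and by Ramp3 alone it was 6.41-fold. By group it was at 470 CPM in the Gja5 group, 437 CPM in the Npr3 group, and 113 CPM in both the Ackr1 and Apln groups. The order of the groups matched that of Ramp3 at its upper end, where members came first, the Gja5 group next and the Npr3 group after it.

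Plpp1, which removes phosphate from lysophosphatidic acid and sphingosine 1-phosphate, was at 1294 CPM in members (1277 to 1312) and at 535 CPM in the other gated cells, a 2.42-fold difference (2.38 to 2.46), which was 1.65-fold when cells were scored by Aplnr alone. The 4 other scored groups lay between 376 CPM and 689 CPM, well under the members. Sgk1, a serum- and glucocorticoid-induced kinase gene, was at 580 CPM against 294 CPM, 1.97-fold, and fell just short of the 2-fold line.

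Col13a1, a collagen that spans the membrane, was at 302 CPM in members and 148 CPM in the other gated cells (2.04-fold, 1.97 to 2.12), with 244 CPM in the Gja5 group and 46.4 CPM in the Ackr1 group. Emid1, a gene of an extracellular protein with an EMI domain, was at 158 CPM against 78.5 CPM (2.01-fold, 1.92 to 2.12), and the Gja5 group at 148 CPM was close to members. Emilin1, an elastic fibre glycoprotein, was at 59.3 CPM against 26.3 CPM (2.25-fold), and Rcn3, a calcium-binding protein of the secretory pathway, at 85.4 CPM against 39.3 CPM (2.17-fold). Emilin1 and Rcn3 were next highest in the Ackr1 group, whereas Col13a1 and Emid1 were next highest in the Gja5 group. When cells were scored by Aplnr alone, Emid1 changed direction (0.808-fold) and Col13a1 was at 1.18-fold, and with Ramp3 alone they were at 2.92-fold and 2.19-fold.

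Enzymes and receptors made up most of the rest. Gchfr, the feedback regulator of GTP cyclohydrolase and so of tetrahydrobiopterin synthesis, was at 143 CPM against 66.9 CPM (2.13-fold, 2.02 to 2.24). Of 3573 genes outside the rule that were compared, it alone was at least 2-fold higher in members than in each of the 4 other scored groups, which lay between 60.5 CPM and 65.1 CPM. Akr1b8, an aldo-keto reductase, was at 218 CPM against 104 CPM, and Fcgrt, the heavy chain of the neonatal Fc receptor, at 373 CPM against 178 CPM, both just over 2-fold. The adhesion G protein-coupled receptor gene Adgrg3 was at 53.5 CPM against 20.2 CPM (2.65-fold), the ubiquitin ligase gene Hecw2 at 82.5 CPM against 37.6 CPM (2.19-fold), the adaptor gene Dok4 at 131 CPM against 67.2 CPM (1.95-fold) and the membrane protein gene Pmp22 at 121 CPM against 57.4 CPM (2.12-fold). Scored by Aplnr alone, Gchfr was at 1.71-fold, Fcgrt at 1.72-fold, Adgrg3 at 1.38-fold, Hecw2 at 1.44-fold and Pmp22 at 1.49-fold, all under the 2-fold line. Akr1b8 stayed over that line at 2.05-fold. Scored by Ramp3 alone, Akr1b8 was at 1.61-fold, Gchfr at 1.95-fold and Fcgrt at 1.92-fold, under the line. Adgrg3 (2.73-fold), Hecw2 (2.09-fold) and Pmp22 (2.07-fold) were then over it.

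The 15 higher genes outside the rule were chosen for a high level in members. Of these 15, 13 were highest in members among the 5 scored groups, beside 17.7% of 3573 genes compared. The exceptions were Slco2a1, a prostaglandin transporter gene with 312 CPM in members and 376 CPM in the Ackr1 group, and Slc6a6, a taurine transporter gene with 87.5 CPM in members and 140 CPM in the Gja5 group; both were chosen for the text after their values were seen. At a lower bar, 14 genes were at least 1.5-fold higher in members than in each of the 4 groups. The same count was 161 for the Ackr1 group, 56 for the Apln group, 41 for the Gja5 group and 11 for the Npr3 group. The count for members was thus closest to that of the Npr3 group.

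**Figure D1:**
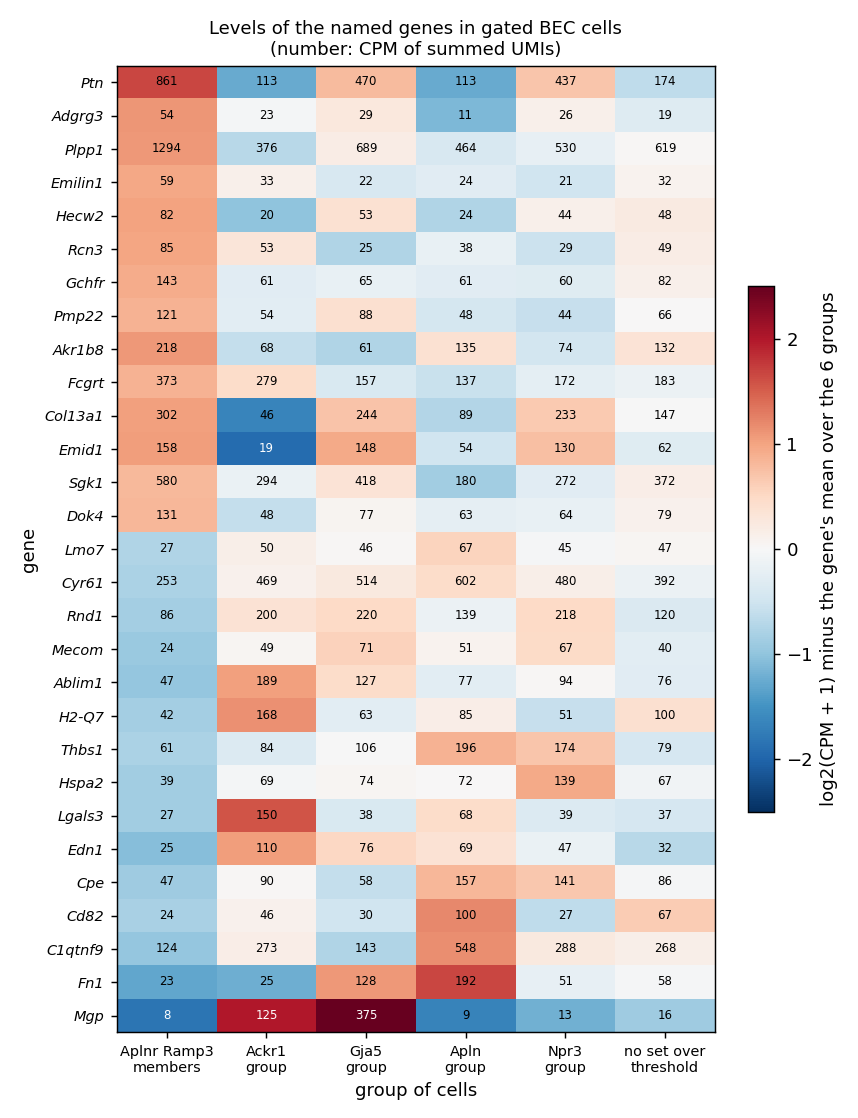
Levels of the named genes (rows) in members, the 4 other scored groups and cells with no set over the threshold (columns), as CPM of summed UMIs printed in each cell; colour gives log2(CPM + 1) minus the mean of the gene over the 6 groups. Ptn reads 861 CPM in members and 470 and 437 CPM in the Gja5 and Npr3 groups, while Mgp reads 375 CPM in the Gja5 group and under 10 CPM in members.

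Some sprouting genes were lower in members than in the other gated cells, which include the Apln group drawn on tip genes. The 13 genes of the tip list, 3 scored genes included, summed to 2214 CPM in members and 994 CPM in the Ackr1 group. The sum was 3172 CPM in the Gja5 group, 5510 CPM in the Npr3 group and 6470 CPM in the Apln group. Members were second lowest of the 5 scored groups, but the rule set part of this order. None of the 9 tested genes outside the rule was lowest in members. Angpt2, the context-dependent Tie2 ligand of sprouting endothelium, was at 383 CPM in members and 846 CPM in the other gated cells, and Esm1, a proteoglycan of tip cells, at 831 CPM against 1820 CPM. Adm, which encodes adrenomedullin, was at 48.1 CPM in members, 477 CPM in the Apln group and 33.2 to 68.5 CPM in the other 3 scored groups, so it was lower through the Apln group. Pgf, a ligand of Flt1, was at 6.20 CPM in members and 207 CPM in the Apln group. Of 9 tip and sprouting genes tested outside the rule, these 3 of the list (Angpt2, Esm1 and Adm) were at least 2-fold lower and none was 2-fold higher, beside 1.14% and 0.538% of all tested genes, and 4 of the 9 were above the other gated cells. The median log2 difference of the list was -0.34. Other tip genes did not follow, among them Pdgfb (86.7 CPM against 86.5 CPM) and Nid2 (120 CPM against 93.4 CPM).

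The 13 genes of the arterial list, scored genes included, summed to 848 CPM in members, 698 CPM in the Apln group, 1547 CPM in the Ackr1 group, 1691 CPM in the Npr3 group and 4833 CPM in the Gja5 group, which was drawn on arterial genes. Mgp, an inhibitor of mineral deposition in vessel walls, was at 7.81 CPM in members (6.51 to 9.30) and 68.0 CPM in the other gated cells, with 375 CPM in the Gja5 group, 125 CPM in the Ackr1 group, 12.6 CPM in the Npr3 group and 8.76 CPM in the Apln group. A single cell held 17.7% of all its UMIs in gated cells. Fbln5, an elastic fibre protein, was at 32.7 CPM in members, 632 CPM in the Ackr1 group, 504 CPM in the Gja5 group, 41.3 CPM in the Apln group and 30.7 CPM in the Npr3 group. The low level of both was therefore shared with the Npr3 and Apln groups, and both reached 50 CPM only through groups where they were high. Of 9 arterial genes tested, Mgp and Fbln5 were at least 2-fold lower, beside 1.14% of all tested genes. All 9 were below the other gated cells, and the median log2 difference was -0.63. Gja4, the connexin 37 gene, was at 130 CPM in members, 1120 CPM in the Gja5 group and 376 CPM in the Npr3 group.

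Fn1, the fibronectin gene, was at 23.5 CPM in members (21.2 to 26.0) and 95.9 CPM in the other gated cells, with 192 CPM in the Apln group and 24.8 CPM in the Ackr1 group. C1qtnf9, a secreted adiponectin-like factor gene, was at 124 CPM against 333 CPM, and members were the lowest of the groups, next to the Gja5 group at 143 CPM. Thbs1, the angiogenesis inhibitor thrombospondin, was at 61.4 CPM against 134 CPM, and Cyr61, a matricellular protein gene, at 253 CPM against 491 CPM. The tetraspanin gene Cd82 was at 24.1 CPM against 60.3 CPM, the prohormone-processing gene Cpe at 47.2 CPM against 114 CPM, and the galectin gene Lgals3 at 26.8 CPM against 60.5 CPM. Cd82 and Cpe were highest in the Apln group and Lgals3 in the Ackr1 group. Scored by Aplnr alone, C1qtnf9 was at 0.638-fold and Cd82 at 0.631-fold, and scored by Ramp3 alone, Thbs1 was at 0.571-fold and Lgals3 at 0.550-fold, so these no longer passed 2-fold.

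Edn1, the endothelin precursor, was at 24.7 CPM in members (22.4 to 27.3) and 60.4 CPM in the other gated cells, with 110 CPM in the Ackr1 group and 47.4 CPM in the Npr3 group. Its receptor gene Ednrb, named after its values were seen, went the other way, with 469 CPM in members, 422 CPM in the Npr3 group and 99.3 CPM in the Ackr1 group. Mecom, a zinc finger transcription factor gene, was at 24.5 CPM in members and 49.4 to 71.1 CPM in the 4 other scored groups, so members were the lowest of the 5. The small GTPase gene Rnd1 (85.8 CPM against 168 CPM), the actin-binding gene Ablim1 (46.5 CPM against 100.5 CPM), the chaperone gene Hspa2 (38.5 CPM against 85.2 CPM) and Lmo7 (26.6 CPM against 51.9 CPM) were also lower in members. Scored by Ramp3 alone, Mecom was at 0.677-fold, Rnd1 at 0.671-fold, Hspa2 at 0.645-fold and Ablim1 at 0.418-fold. With Aplnr alone they were at 0.478-fold, 0.472-fold, 0.446-fold and 0.701-fold. Of the 31 lower genes outside the rule, 15 were highest in the Apln group, 10 in the Ackr1 group, 3 in the Gja5 group and 3 in the Npr3 group. Among these 31, chosen for a low level in members, 12 were lowest in members, beside 7.28% of 3573 genes compared.

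Ccl21a, a lymphatic chemokine, was at 9.05 CPM in members and 112 CPM in the other gated cells, with 281 CPM in cells with no set over the threshold and 156 CPM in the Gja5 group. These are the groups that held most of the 32 cells with 5 or more lymphatic UMIs, 20 and 7 of them, and Ccl21a was at 24373 CPM in the LEC sort. Without these 32 cells, a setting chosen after seeing the data, the other gated cells were at 9.37 CPM and the difference from members was gone.

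The receptors that Ramp3 can join and the ligands of both receptors were followed next. Calcrl was at 50.5 CPM in members (47.1 to 54.1) and 32.4 to 67.2 CPM in the 4 other scored groups, with the Ackr1 group highest and the Apln group lowest. Ramp2 was at 1015 CPM in members and 814 to 1036 CPM in the 4 groups. Ramp1, the partner of Calcrl in the receptor for calcitonin gene-related peptide, was at 0.248 CPM, the level of a few UMIs. Of the Calcrl partners, Ramp3 alone differed by 1.5-fold or more between members and the other gated cells, and the rule chose it. Apln was at 148 CPM in members and 789 CPM in the Apln group, which the rule chose on it. Of 7 tested genes of the apelin list outside the rule, none was 2-fold apart and the median log2 difference was 0.01; the flow-induced factor Klf2 was at 778 CPM in members and 980 CPM in the other gated cells.

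Receptors of the vascular endothelial growth factors lay slightly higher in members than in the other gated cells, and Kdr, Flt1 and Nrp1 were higher still in the Npr3 group. Kdr was at 461 CPM in members, 547 CPM in the Npr3 group and 245 CPM in the Ackr1 group, Flt1 at 1330 CPM, 1756 CPM and 655 CPM, and Nrp1 at 623 CPM, 685 CPM and 292 CPM. Flt4 was at 61.0 CPM, 59.9 CPM and 21.2 CPM. Of the 6 tested genes of this list only Pgf was 2-fold apart, and 5 were above the other gated cells. All 11 tested basement membrane genes were above the other gated cells, none by 1.5-fold. Their median log2 difference was 0.11, beside 0.03 over all tested genes, and 1 of the 11 was highest in members. The list of 14 genes summed to 18506 CPM in members and 21808 CPM in the Npr3 group. In the Apln, Gja5 and Ackr1 groups the sum was 18087, 16593 and 9669 CPM.

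The MHC class I list summed to 6200 CPM in members and 7026 to 8694 CPM in the 4 other scored groups. Of 8 tested genes of the MHC class I list none was 2-fold apart, but each was lower in members than in each of the 4 other scored groups, with a median log2 difference of -0.37. H2-K1 was at 456 CPM in members and 578 to 1136 CPM in the 4 groups, B2m at 3078 CPM and 3109 to 4156 CPM, and the immunoproteasome gene Psmb9 at 57.7 CPM and 82.5 to 107 CPM. H2-Q7, a Qa antigen gene outside that list, was 2-fold lower, with 41.5 CPM in members, 50.8 CPM in the Npr3 group and 168 CPM in the Ackr1 group. When cells were scored by Aplnr alone it was at 0.958-fold, and by Ramp3 alone at 0.272-fold. All 8 tested interferon response genes were below the other gated cells, with Isg15 at 156 CPM against 243 CPM and Gbp2 at 31.4 CPM against 51.1 CPM. Only 4 of these 8 were lowest in members among the scored groups. That list summed to 3327 CPM in members, 3659 CPM in the Gja5 group, 3841 CPM in the Npr3 group, 3902 CPM in the Apln group and 5748 CPM in the Ackr1 group. Of 3160 genes tested, the median stood at 0.03, so these lists lay below it, and none of their listed genes passed 2-fold.

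Of 17 immediate-early and dissociation stress genes, 16 were below the other gated cells, with a median log2 difference of -0.33 and none 2-fold apart. Egr1 was at 93.2 CPM in members and 134 to 272 CPM in the 4 other scored groups, and Atf3 at 89.5 CPM and 110 to 216 CPM. The summed level of the list was 7408 CPM in members, 6884 CPM in the Apln group, 8700 CPM in the Npr3 group, 10920 CPM in the Gja5 group and 11916 CPM in the Ackr1 group. The Apln group was thus lower than members in sum. These genes are induced by tissue dissociation as well as in vivo, and the part of handling was not tested. Of 7 fatty acid uptake genes none was 2-fold apart and all were below the other gated cells, with Fabp4 at 3833 CPM in members, 2232 CPM in the Npr3 group and 10863 CPM in the Ackr1 group. Glycolysis genes had a median log2 difference of -0.19 over 12 genes, and the Apln group was the highest in each of Pkm, Aldoa and Tpi1.

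To ask which of the 2 scored genes each difference went with, all gated cells were split by a UMI of either gene after thinning, whatever their group. This gave 756 cells with both, of which 65.7% were members, 981 with Aplnr only, 677 with Ramp3 only and 756 with neither. Ptn went with Ramp3, at 790 CPM with both and 599 CPM with Ramp3 only against 85.0 CPM with Aplnr only and 144 CPM with neither. Ednrb did so too, with 448 and 450 CPM where Ramp3 was found, 179 CPM with Aplnr only and 260 CPM with neither. Emid1 was at 152 and 159 CPM where Ramp3 was found and at 34.7 CPM with Aplnr only. Col13a1 was at 289 CPM with both, 239 CPM with Ramp3 only, 109 CPM with Aplnr only and 118 CPM with neither. Kcne3, a potassium channel subunit gene, was at 1021 and 980 CPM where Ramp3 was found, 475 CPM with Aplnr only and 611 CPM with neither. For these 5 genes cells with Aplnr only were below cells with neither.

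Another set went with Aplnr. Prcp, a carboxypeptidase gene, was at 173 CPM with both and 222 CPM with Aplnr only, against 52.4 CPM with Ramp3 only and 49.6 CPM with neither. Ptgs1, the cyclooxygenase 1 gene, was at 88.0 CPM with both and 101 CPM with Aplnr only, against 25.6 and 26.3 CPM. Both were chosen for the text after their values were seen. In the Ackr1 group Ptgs1 reached 208 CPM, against 96.3 CPM in members and 19.5 to 31.7 CPM in the other 3 scored groups.

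Plpp1, Gchfr and Akr1b8, chosen for a high level in members, were highest where both were found, a class with 65.7% members. That choice set part of this order, and Ptn, Col13a1 and Kcne3 were highest there too. Plpp1 was at 1164 CPM with both, 696 CPM with Ramp3 only, 549 CPM with Aplnr only and 442 CPM with neither. Gchfr was at 132 CPM with both, 81.6 CPM with Aplnr only and 68.3 CPM with Ramp3 only, and Akr1b8 at 186 CPM with both and 93.4 to 133 CPM in the others. Median depth was 20927.5 UMIs in cells with both and 17100 UMIs in cells with neither, so thinning did not make the classes equal in depth.

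**Figure D2:**
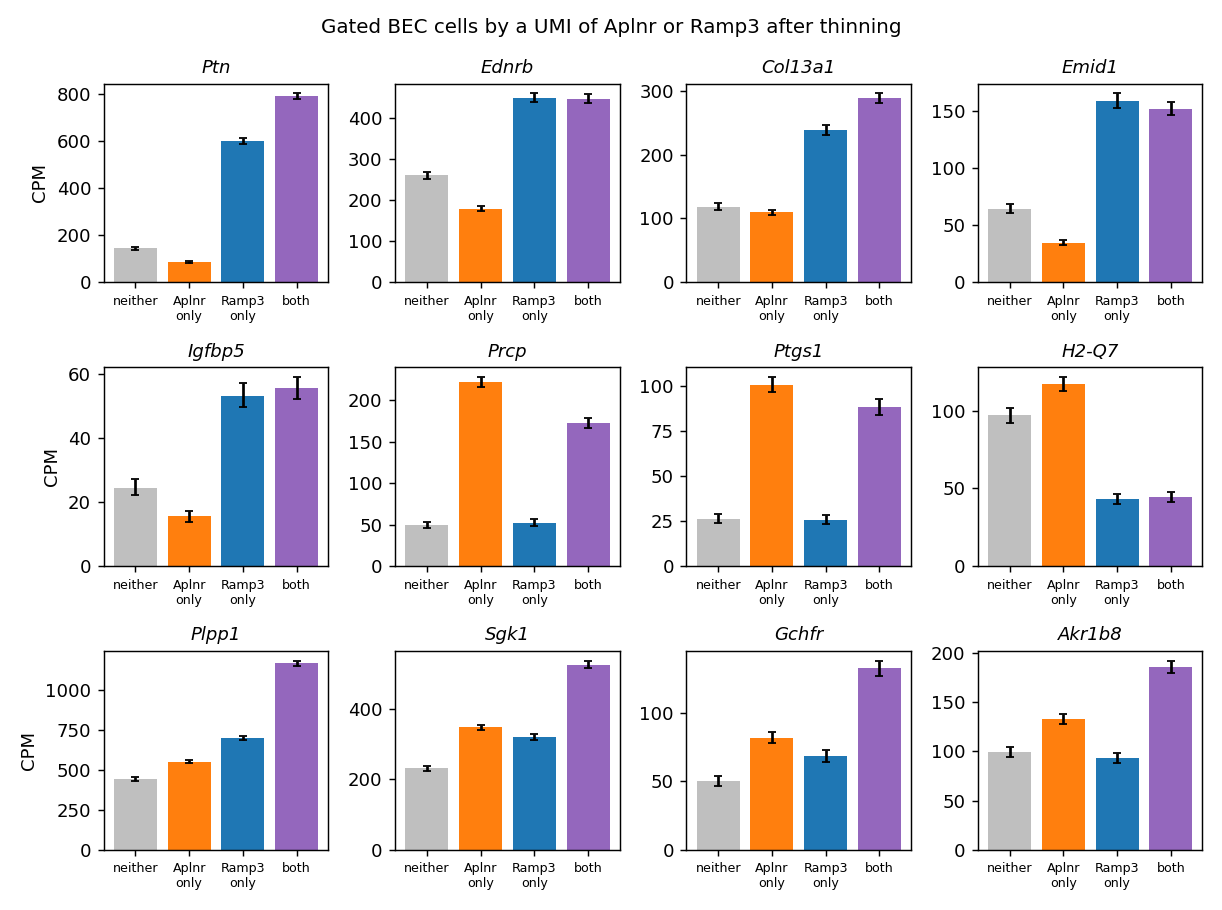
CPM of 12 genes (1 panel each, axes from 0) in gated cells that held, after thinning to 5000 UMIs, a UMI of neither gene, of Aplnr only, of Ramp3 only or of both; bars are CPM of summed UMIs and lines are exact Poisson intervals for counting error. Ptn is at 599 and 790 CPM in the 2 classes with Ramp3 and at 85.0 CPM with Aplnr only, Prcp is at 222 and 173 CPM in the 2 classes with Aplnr, and Plpp1 is highest, at 1164 CPM, with both.

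Scores were also followed as a gradient over all gated cells, from 1048 cells at a z of -0.5 or less to 247 cells over 1.5, of which 232 were members. No cell at 0.5 or less was a member, and the genes below were chosen for their difference between members and other gated cells. Their direction over the bins was thus largely set by that choice. Ptn went from 109 CPM in the lowest bin through 291 CPM at 0 to 0.5 and 673 CPM at 1 to 1.5 to 1662 CPM over 1.5. Plpp1 went from 423 CPM to 1722 CPM and Fcgrt from 122 CPM to 493 CPM, each higher in every successive bin. C1qtnf9 went the other way, from 389 CPM to 65.3 CPM, and H2-Q7 from 104 CPM to 19.3 CPM. Mgp fell to 17.1 CPM already in the second bin, from 150 CPM in the first, and was at 7.22 CPM at 1 to 1.5 and 9.47 CPM over 1.5. Its low level was thus shared by most gated cells.

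**Figure D3:**
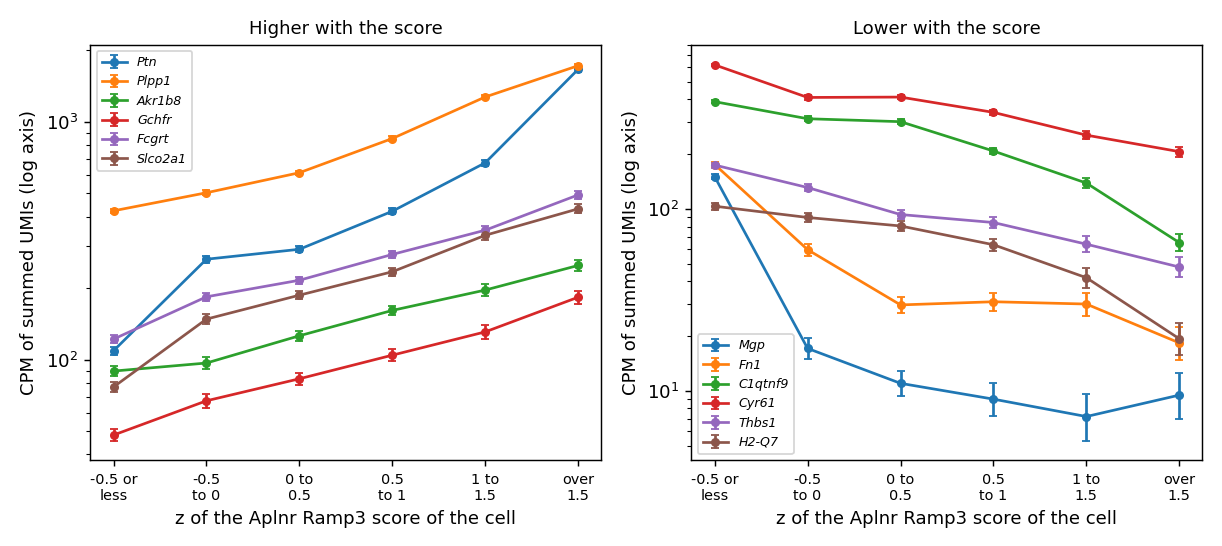
CPM of summed UMIs (log axis) of 6 genes that were higher (left) and 6 that were lower (right) with the Aplnr Ramp3 score, in 6 bins of the z of the score over all gated cells; points are bins and lines on them exact Poisson intervals for counting error. Ptn runs from 109 CPM in the lowest bin to 1662 CPM in the highest, and C1qtnf9 from 389 CPM to 65.3 CPM. The genes were chosen on members, which the same score defines, so the trends are a description.

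Members differed widely among themselves in Ptn. No UMI of it was found in 364 of the 736 members, the median was 1 UMI, and the highest cell held 278. The 74 members with the most Ptn held 62.2% of its UMIs in members. After thinning, 182 members (24.7%) held 5 or more Ptn UMIs, 438 (59.5%) held none and 116 lay between. The share with 5 or more was 15.5% in the Npr3 group, 14.6% in the Gja5 group, 5.07% in the Apln group and 3.76% in the Ackr1 group.

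The members with 5 or more Ptn UMIs had 1164 CPM of Ramp3 and 526 CPM of Aplnr, and those with none had 556 CPM of Ramp3 and 778 CPM of Aplnr. Median depth was 18875.5 and 19447.5 UMIs in these cells. The rule required a high joint score of Aplnr and Ramp3, so a member with little Aplnr needed much Ramp3, and the reverse. That choice set part of the opposite order of Aplnr and Ramp3 between these members. Igfbp5, which encodes an insulin-like growth factor binding protein, was 6.11-fold higher with Ptn (144 CPM against 23.5 CPM, interval 5.23 to 7.17) and Emid1 was at 296 CPM against 98.8 CPM. Vegfc, a ligand of Flt4 and one of the scored genes, was at 126 CPM against 43.6 CPM. Igfbp5 was found in 8.29% of members. Fabp4, a fatty acid binding protein gene, was lower with Ptn, at 1366 CPM against 5110 CPM, and C1qtnf9 was at 37.5 CPM against 173 CPM. The interferon-induced GTPase gene Iigp1 was at 18.2 CPM against 78.2 CPM, and H2-Q7 at 13.9 CPM against 55.4 CPM. Of 3217 genes compared, 18 were at least 2-fold higher and 19 at least 2-fold lower in members with Ptn.

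In 530 members (72.0%) no other set passed the threshold. The others came second in the Apln set (74 members), the Npr3 set (62), the Gja5 set (45) and the Ackr1 set (25). Ptn was at 1771 CPM in members with the Gja5 set second, 1419 CPM with the Npr3 set, 774 CPM with the Apln set and 231 CPM with the Ackr1 set, beside 775 CPM in members with no second set. Plpp1 ranged only from 1012 CPM to 1861 CPM over these 5 kinds of member. Members with the Ackr1 set second had 498 CPM of Prcp and 169 CPM of Ptgs1, against 208 and 99.2 CPM in members with no second set.

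Among the 4 other scored groups, pairwise comparisons placed members nearest to the Npr3 group by the number of genes apart. Cells with no set over the threshold were left out of this comparison. At 2-fold and 50 CPM in the higher group, 66 of 3176 genes differed from the Npr3 group (2.08%), 107 of 3254 from the Gja5 group (3.29%), 119 of 3183 from the Apln group (3.74%) and 282 of 3325 from the Ackr1 group (8.48%). Against the Ackr1 group, with which members share Aplnr, 121 genes were higher and 161 lower. Against the Npr3 group 28 were higher and 38 lower. These counts leave out the scored and gate genes, and the groups differ in size and so in counting error.

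Neighbours were sought in 30 principal components of 2000 variable genes computed without the scored and gate genes. Of the 15 nearest neighbours of a member, 49.2% were members, which is 2.12 times their share of 23.2% among gated cells. A further 20.7% had no set over the threshold, 11.6% were of the Npr3 group, 9.4% of the Apln group, 5.2% of the Gja5 group and 3.8% of the Ackr1 group. In 355 members (48.2%) at least 8 of the 15 were members, and 9 members had none. The share of own neighbours was 66.5% in the Ackr1 group, 49.8% in the Apln group, 49.2% in the Npr3 group and 33.7% in the Gja5 group. Relative to their share of gated cells these were 6.09, 2.86, 2.84 and 3.46 times, so by this measure members had the lowest value of the 5 scored groups. A larger group has a lower ceiling on this ratio, and members were the largest group. The ratios alone therefore do not rank how closely the cells of each group lie together.

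**Figure D4:**
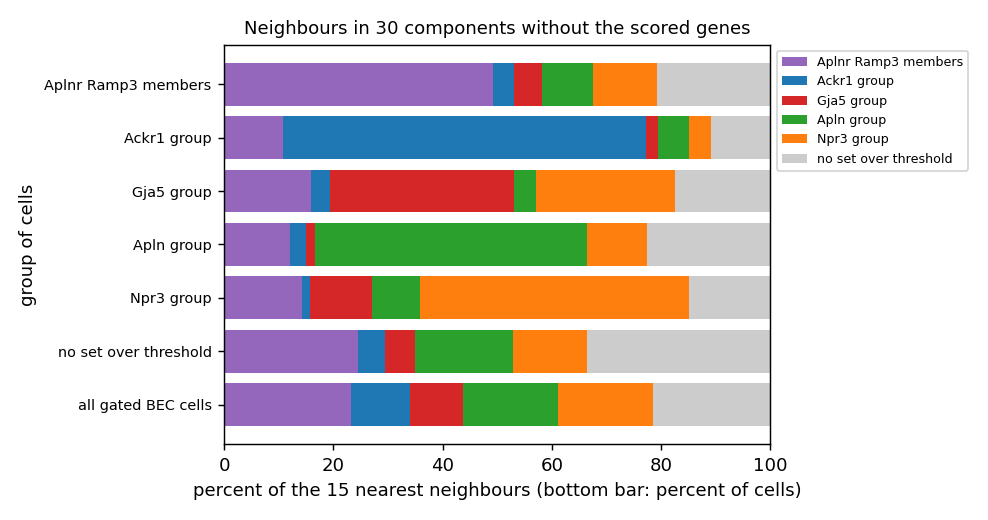
Share in percent of the 15 nearest neighbours (horizontal axis) that fell in each group of gated cells (colours), for the cells of each group (bars); the bottom bar gives each group's percent of all gated cells. The bar of members holds 49.2% members and 20.7% cells with no set over the threshold, while that of the Ackr1 group holds 66.5% of its own.

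Cycling cells were those in which 10 cell cycle genes together gave at least 2 UMIs after thinning. They made up 146 of 736 members (19.8%, 17.0 to 22.9%), 18.7% of the Apln group, 15.9% of the Ackr1 group, 13.3% of the Npr3 group, 11.7% of the Gja5 group and 24.3% of cells with no set over the threshold. All other gated cells together were at 17.7% (16.2 to 19.3%). Without thinning the share was 47.4% in members and 40.8% in the other gated cells. The proliferation list had none of 8 tested genes 2-fold apart and 3 above the other gated cells, a median log2 difference of -0.18, and a sum of 810 CPM in members against 829 CPM. These shares are over cells of 1 sample, so no difference in cycling was tested.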

How the data were processed

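Single cells of 2 sorts from MT-ret tumors of 10 mice were measured, with 4 libraries listed per sort. The authors deposited 1 matrix of unnormalised UMI counts (28692 gene symbols by 7635 cells). The submitters' processing notes name Cell Ranger 2.1.1 and mm10, and how cells were selected before deposit is not stated there. Column names gave no library, so each sort was 1 sample and no p-value is given. Members and gene lists were chosen with earlier results of these data known. UMIs were summed per group and given as CPM with exact Poisson intervals, ratios have exact conditional binomial intervals and shares exact Clopper-Pearson intervals, all for counting error only. In members 1 UMI was worth 0.0620 CPM, and in the other gated cells 0.0187 CPM. Log2 differences used a pseudocount of 1 CPM. A gene was called at 2-fold and 50 CPM in the higher group. The text names the 15 genes with the highest and the 15 with the lowest log2 difference among genes at least 1.5-fold apart, with a UMI in 10% of cells of the higher group and the same direction against each of the 4 other scored groups, without scored, gate, mitochondrial, ribosomal, haemoglobin and model genes, and further the called and the leading members of 37 lists; the result of 1 gene is not reported here. Gene positions are from GENCODE (GRCm38) and promoter windows from RefSeq. The scripts were tested on simulated data and used Python 3.11.15, numpy 2.4.6, scipy 1.17.1, pandas 2.3.3, scikit-learn 1.9.0 and matplotlib 3.10.9.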

Additional observations from a re-analysis of the deposited data

Results flagged for a closer look

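The rule for members was also applied to the LEC sort, with the z of the BEC cells, and picked 21 of 4119 gated cells. This was 0.510% (exact binomial interval 0.316 to 0.778%), where a count of 0 would have had an upper limit of 0.0728%. How many cells would pass by accident is not known, so the count was not tested. These 21 cells had 552 CPM of Aplnr, 1291 CPM of Ramp3, 1843 CPM of Ptn and 1419 CPM of Flt1, against 6.21, 15.7, 204 and 34.3 CPM in the other gated LEC cells. They had 212 CPM of Lyve1 and 12.0 CPM of Prox1, against 1965 and 261 CPM, and 3 of them held a UMI of Prox1. Lymphatic genes were thus lower and blood endothelial genes higher in them than in the rest of that sort. Their source was not tested.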

How the results depend on the processing

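The counts of higher and lower genes, the genes highest in members, the named genes and, except for 3 lists with no value under some of them, the list medians were recomputed under 18 alternative settings, and the members, cycling and neighbour shares under those that could change them. The pairwise counts, the split by detection, the score bins, the split by Ptn and the second sets were not recomputed. Of the settings, 1 (without cells with 5 or more lymphatic UMIs) was chosen after seeing the data. No paired analysis was possible because the columns carry no library number, and for the same reason no library could be left out. Members fell from 736 to 466 with a threshold at a z over 1. The 17 genes at least 2-fold higher became 11 at a z over 0, 10 with the score from Aplnr alone, 11 with the score from one part of the UMIs and values from the rest, 28 at a minimum of 10 CPM and 44 with no minimum. The 36 genes at least 2-fold lower became 105 at 10 CPM and 280 with no minimum. The 14 genes highest in members by 1.5-fold became 8 at a z over 0, 28 at a z over 1, 9 with split UMIs, 24 at 10 CPM and 99 with no minimum. The share of neighbours that were members, 49.2%, was 41.2% at a z over 1, 55.1% with Aplnr alone and 43.7% with the score taken after thinning, and the cycling share, 19.8%, was 24.1% with Aplnr alone. A lower minimum brings in genes with few UMIs; the cause of the other shifts was not tested.

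With the score from Aplnr alone, Emid1 changed direction (log2 difference -0.31), as did the medians of the VEGF list (-0.093), the fatty acid uptake list (0.012) and the sphingosine 1-phosphate list (-0.25), and with no minimum that of the lymphatic list (-1.04). Ptn was 1.10-fold higher with Aplnr alone and 6.41-fold higher with Ramp3 alone, on the scale with a pseudocount. Of the 15 higher and 15 lower named genes, 14 and 15 kept their direction under all 18 settings, and 8 and 11 stayed at 1.5-fold or more. Depth limits genes at a few UMIs, such as Ramp1 and Lyve1.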
